A study of Mus musculus with 4 samples.

Results

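Natural killer cells of the renal capsule were the 376 cells that met a gate on their own transcripts, out of 37361 cell barcodes that passed the quality limits in 4 single-cell RNA libraries. They were chosen by the raw UMI counts of 9 genes. A barcode entered when it held at least 2 unique molecular identifiers (UMIs, each counting 1 captured RNA molecule) of Ncr1 and Klrb1c together, no UMI of Cd3d, Cd3e or Cd3g, none of Cd79a, and fewer than 6 of C1qa, C1qb and C1qc together. A barcode passed the quality limits with 500 or more UMIs, 300 or more detected genes and no more than 20% mitochondrial UMIs. The capsule, the fibrous sheath of the kidney, was dissected from untreated aged and young mice, digested with Liberase and DNase, and loaded as whole tissue on the 10x Genomics 3' v3.1 platform, with 2 libraries per age. The labels give no age in weeks or months, strain or sex, and do not say whether a library came from 1 mouse or from several, so the p-values rest on the variation between libraries, which may be technical.

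Natural killer cells are innate lymphocytes that kill infected or transformed cells without prior sensitisation. Activating receptors such as NKp46 (encoded by Ncr1) and NKG2D (Klrk1) signal through adaptors that carry activation motifs (Fcer1g, Tyrobp, Hcst), whereas Ly49 receptors (the Klra genes) and CD94-NKG2A (Klrd1 with Klrc1) mostly restrain the cell when a target displays MHC class I. Killing is carried out by perforin (Prf1) and granzymes (Gzma, Gzmb). The same cells secrete interferon gamma and the chemokines Ccl3, Ccl4, Ccl5 and Xcl1. Related type 1 innate lymphoid cells share Ncr1 and Klrb1c, reside in tissue, and carry more Itga1, Cxcr6, Tnfsf10 and Il7r and less Eomes.

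The 4 libraries held 7067 and 12289 barcodes from aged capsules, against 9712 and 10368 barcodes from young capsules. Their totals were 51180311 and 65118489 UMIs in the aged libraries, against 68052444 and 70925446 UMIs in the young libraries. The gate found 115 and 175 cells in the aged libraries, against 41 and 45 cells in the young libraries. Median depth was 4492 and 3102 UMIs per natural killer cell in the aged libraries, against 3036 and 3432 UMIs in the young libraries. No natural killer barcode was shared between libraries, whereas 18 to 37 of the barcodes that passed the limits were shared by each pair of libraries.

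The identity of the gated cells was checked with genes that the gate did not use. Nkg7, a cytotoxic granule protein given as the marker of these cells, was at 2723.94 and 2412.88 CPM (its share of the UMIs in the usual CPM unit, scaled between libraries) in the aged natural killer cells, against 2174.77 and 2350.47 CPM in the young ones. In the type 2 innate lymphoid gate it was at 17.4 to 38.5 CPM and in the fibroblast gate at 0.715 to 10.4 CPM. The T cell gate described below was closer, at 1323 and 1334 CPM (unscaled) in aged libraries and 566 and 696 CPM in young libraries. Eomes, Tbx21, Klre1, Klrd1, Klrk1, Gzma, Prf1, Txk and Il2rb were all detected in every library. These levels describe cells chosen for their natural killer transcripts and were not tested against other classes. Of 12 T cell markers outside the gate, Trac, Cd5 and Cd6 had no UMI in any natural killer cell, and the 12 together summed to 868 and 779 CPM (unscaled) in the aged cells, against 522 and 821 CPM in the young cells. Trbc2, which innate lymphocytes can transcribe without a rearranged receptor, was at 528 and 524 CPM in the aged cells, against 222 and 521 CPM in the young cells. Cd28, a costimulatory receptor of T cells, was at 63.9 and 46.3 CPM in the aged cells, against 67.2 and 96.9 CPM in the young cells. Of the 376 cells, 258 (68.6%) held a Trac, Trbc1 or Trbc2 UMI. The 11 B cell markers, MHC class II genes among them, summed to 525 and 4805 CPM (unscaled) in the aged cells, against 382 and 984 CPM in the young cells, and to 445 and 532 CPM in the aged cells, against 434 and 429 CPM in the young cells, without the cells that carried another class. Ms4a1 was at 0 in all 4 libraries, and Ighm was present in each. Type 2 innate lymphoid markers were low: Il5 and Il13 were at 0, and Gata3 was at 82.8 and 66.5 CPM (unscaled) in the aged natural killer cells, against 62.9 and 59.8 CPM in the young ones, and at 524 to 909 CPM in the type 2 gate.

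At the edge of the gate, with the other limits held, 18498 barcodes had no Ncr1 or Klrb1c UMI, and 0.919% of them had an Nkg7 UMI. Of 42 barcodes with exactly 1 such UMI, just outside the gate, 40.5% had Nkg7. Of 34 barcodes with 2 UMIs, just inside it, 97.1% had Nkg7, and of 42 with 3 UMIs 90.5%.

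Some of the gated barcodes also carried transcripts of another cell class. By limits chosen after seeing the data (10 or more UMIs of Dcn, Col1a2 and Col3a1, 10 or more of 5 tubule transcripts, or 20 or more of 4 MHC class II transcripts), there were 6 and 14 such barcodes in the aged libraries, against 7 and 8 in the young libraries. These made up 5.22% and 8.0% of the aged natural killer cells, against 17.1% and 17.8% of the young ones. They held 11.7% and 25.2% of the natural killer UMIs in the aged libraries, against 23.2% and 36.7% in the young libraries. Of the 35 barcodes, 25 passed the fibroblast limit, 8 the MHC class II limit and 2 the tubule limit. A doublet caller gave high scores to 7 and 14 cells in the aged libraries, against 6 and 5 cells in the young libraries, and they were kept in the main results. In young library 1 a single cell with 42645 UMIs, a cell cycle signal, 11 Ncr1 UMIs and no Gzma UMI held 20.6% of all natural killer UMIs, and the next deepest cell, in aged library 2, had 26733 UMIs. The results below are therefore given for all 376 cells and, where it changes them, without the cells that carried another class.

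**Figure D1:**
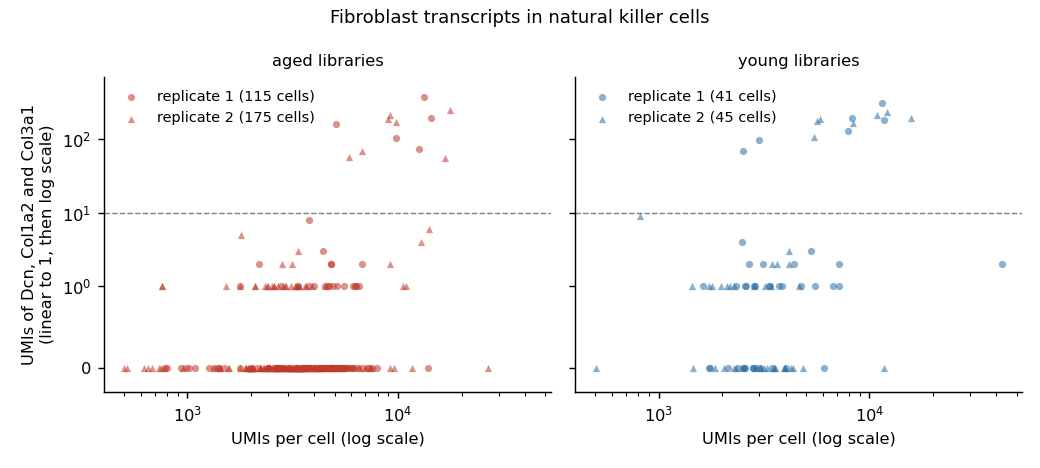
Each point is 1 natural killer cell, with its total UMIs on the horizontal axis (log scale) and its UMIs of Dcn, Col1a2 and Col3a1 on the vertical axis (linear to 1, then log scale), for the 2 aged libraries on the left and the 2 young libraries on the right. The dashed line marks 10 UMIs: 5 and 7 aged cells lie on or above it, against 6 and 7 young cells.

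Natural killer cells took a larger share of the aged capsule. They were 1.70% (exact 95% binomial interval 1.41% to 2.04%) and 1.46% (1.25% to 1.69%) of the barcodes that passed the limits in the aged libraries. In the young libraries they were 0.456% (0.328% to 0.618%) and 0.467% (0.341% to 0.624%). The aged and young libraries did not overlap, and the log2 difference was 1.76 ± 0.169 (SE), with an adjusted p of 0.000153 by edgeR's quasi-likelihood test over 8 cell classes. Intervals cover counting error only, and an exact permutation test over 2 against 2 libraries cannot give a p below 0.333.

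The share depended on which cells it was taken of. Among barcodes with a UMI of Ptprc, the pan-leukocyte CD45 gene, natural killer cells were 2.50% and 2.35% in the aged libraries, against 1.25% and 1.30% in the young libraries, a log2 difference of 0.92 (edgeR adjusted p = 0.00623). Among the 4 lymphoid gates together (natural killer, T, B and type 2 innate lymphoid cells) they were 4.86% and 4.12% in the aged libraries, against 9.03% and 10.5% in the young libraries. That log2 difference was -1.13, in the opposite direction (edgeR adjusted p = 0.00323). In the same fit over all barcodes, T cells differed by a log2 of 3.24 and B cells by 2.96, both further than natural killer cells, and type 2 innate lymphoid cells by 0.41 (adjusted p = 0.108). Natural killer cells were thus more frequent per cell of the aged capsule and less frequent per lymphocyte. With every barcode thinned to 2000 UMIs before gating, the log2 difference of all barcodes was 1.80, and without the cells that carried another class it was 1.94. Without cells holding a Trac, Trbc1 or Trbc2 UMI the shares were 0.370% and 0.493% in the aged libraries, against 0.211% and 0.156% in the young libraries, a log2 difference of 1.27 (edgeR adjusted p = 0.0103).

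**Figure D2:**
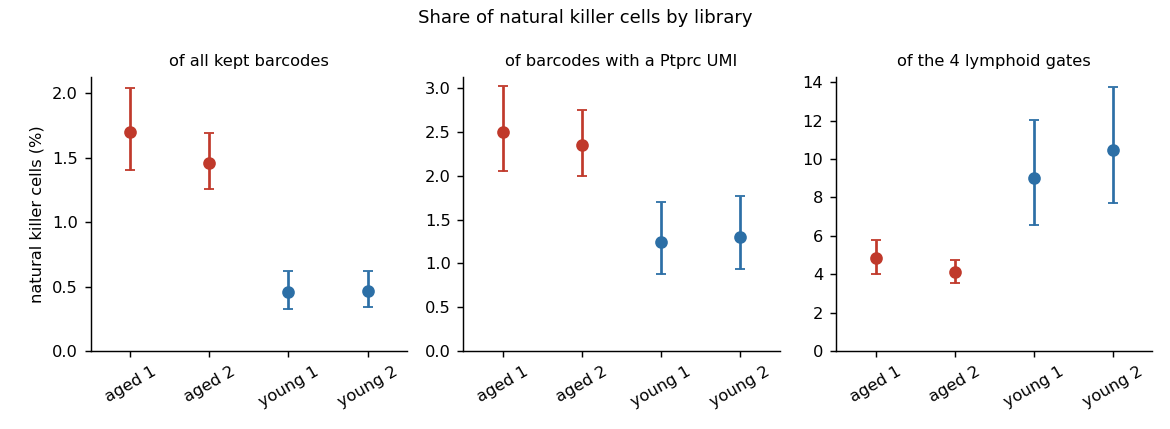
The natural killer share in percent (vertical axis) is drawn for each library, with aged libraries (red) left of young libraries (blue) and exact 95% binomial intervals as bars. The aged libraries stand at 1.70% and 1.46% of all kept barcodes and 2.50% and 2.35% of Ptprc-positive barcodes, above the young libraries, and at 4.86% and 4.12% of the lymphoid gates, below the young libraries at 9.03% and 10.5%.

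The core natural killer programme was present at both ages, and 1 of its 28 genes, Fcer1g, passed the test between ages. Of 5059 genes tested, 131 passed an adjusted p of 0.05 in either direction, which is 2.59% of all tested genes, with 14 higher in aged cells (0.277%) and 117 lower (2.31%). At an unadjusted p under 0.05 there were 748. With the cells of high doublet score removed, 1 of 4317 genes passed (0.0232%). With free RNA taken out of the counts, 0 of 3795 passed by edgeR (294 at an unadjusted p under 0.05). Free RNA was estimated from 10 fibroblast markers over all gated cells, so fibroblast transcripts of cells that carried another class counted towards it. The estimate was 33.8% and 28.4% of natural killer UMIs in the aged libraries, against 31.0% and 51.2% in the young libraries. Without cells of another class the markers summed to 212 and 210 CPM (unscaled) in aged cells, against 529 and 678 CPM in young cells. Over all barcodes they summed to 10047 and 10292 CPM in aged libraries, against 32502 and 32449 CPM in young libraries. The amount taken out was thus set mostly by cells that carried another class. This fit therefore cannot decide which single calls rest on free RNA. Single calls thus depend on which barcodes and UMIs are counted. Without the 2 cells over 20000 UMIs 267 of 5015 genes passed (5.32%), with 35 higher (0.698%) and 232 lower (4.63%), and DESeq2 called 94 of the 5059 genes (1.86%), with 5 higher (0.0988%) and 89 lower (1.76%). The identity list had a median log2 difference of 0.24, beside 0.00343 over all genes tested. Of its 28 genes, 13 had both aged libraries above both young libraries and 2 had both below, beside 21.8% and 22.8% of all tested genes. The median of the list was 0.19 without the cells that carried another class and -0.01 when cells with a cell cycle signal were left out as well.

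Fcer1g, the signalling adaptor shared by NKp46 and CD16, was at 3472 and 3068 CPM in the aged cells, against 1927 and 2241 CPM in the young cells. Its log2 difference was 0.65 ± 0.137 (SE), with an edgeR adjusted p of 0.039, and without the cells that carried another class it was 0.48 with an adjusted p of 0.216. The call was also lost without aged library 1 (adjusted p = 0.228) and without young library 1 (adjusted p = 0.0661). The related adaptor Tyrobp was at 3547 and 3270 CPM in the aged cells, against 2154 and 2853 CPM in the young cells, a log2 difference of 0.45 with an adjusted p of 0.206. Both adaptors had no overlap between ages, and both are also abundant in macrophages.

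Activating and inhibitory receptors were measured in every library. Klrk1, which encodes NKG2D, was at 944 and 751 CPM in the aged cells, against 651 and 763 CPM in the young cells, with overlap between the ages. Klrd1, the CD94 chain, was at 1241.34 and 1238.69 CPM in the aged cells, against 795.52 and 745.124 CPM in the young cells, a log2 difference of 0.69 with an edgeR adjusted p of 0.0652. Without the cells that carried another class and without cycling cells, Klrd1 differed by 0.31 (edgeR adjusted p = 0.621). Klre1, a receptor that pairs with other lectin-like chains in mice, was at 705 and 610 CPM in the aged cells, against 517 and 672 CPM in the young cells. The 15 tested genes of the inhibitory list all had a log2 difference above 0, with a median of 0.61, and none passed the test. The 21 tested genes of the activating list had a median of 0.28, and Fcer1g alone of them passed it. The median over all genes tested was 0.00343. Without the cells that carried another class the inhibitory median was 0.48 and the activating median 0.13. Without cycling cells as well they were 0.35 and 0.06. Among the Ly49 genes, Klra9 was at 608 and 493 CPM in the aged cells, against 222 and 327 CPM in the young cells, with a log2 difference of 1.01 and an edgeR adjusted p of 0.0759. With both kinds of barcode left out Klra9 differed by 0.69 (edgeR adjusted p = 0.319). Klra4 was uneven between the young libraries, at 493 and 690 CPM in the aged cells, against 532 and 176 CPM in the young cells. Klra1 had no UMI in young library 1. Ly49 genes resemble each other, and 44.8% of the 50-base words in the last 500 bases of Klra9 and 42.4% of those of Klra3 also occur in other genes, so that reads could be shared among them.

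Single cells carried different numbers of Ly49 genes. After thinning to 1500 UMIs (11 and 14 aged cells and 0 and 4 young cells were shallower and left out), at least 3 of 6 Ly49 genes were detected in 26.9% (18.7% to 36.5%) and 22.4% (16.2% to 29.6%) of aged cells. The same held for 21.95% (10.6% to 37.6%) and 24.4% (12.4% to 40.3%) of young cells. None of the 6 was detected in 25.0% and 31.1% of the aged cells, against 34.1% and 43.9% of the young cells. The intervals of these shares overlap between ages. They cover counting error within a library only, and a difference between ages was not tested. Klrd1 was detected in 77.9% and 76.4% of thinned aged cells, against 63.4% and 56.1% of thinned young cells, and in 0 to 0.83% of thinned fibroblasts, whose median depth was 5300 to 7931 UMIs.

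**Figure D3:**
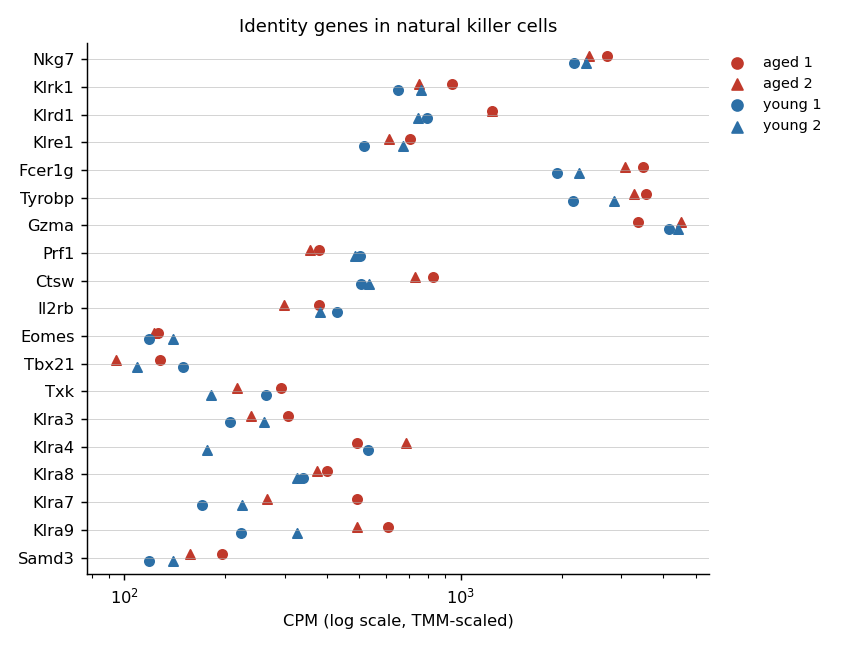
The horizontal axis gives CPM on a log scale for 19 natural killer identity genes (rows), with aged libraries in red, drawn just above the young libraries in blue, and circles and triangles for replicates 1 and 2. Nkg7, Eomes and Gzma lie close together in all 4 libraries, whereas Fcer1g, Klrd1 and Klra9 lie further right in both aged libraries.

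Cytotoxic genes did not pass the test in all 376 cells, and Gzma was lower in aged cells only where barcodes with another class and those with a cell cycle signal were both left out. In all cells, Gzma, a granule protease, was at 3361 and 4517 CPM in the aged libraries, against 4148 and 4434 CPM in the young libraries, with overlap. Prf1, the pore-forming protein perforin, was at 379 and 357 CPM in the aged libraries, against 501 and 485 CPM in the young libraries, a log2 difference of -0.42 with an edgeR adjusted p of 0.373. Gzmb was at 285 and 585 CPM in the aged libraries, against 279 and 515 CPM in the young libraries. None of 19 tested genes of the cytotoxic list passed the test, and their median log2 difference was 0.15.

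Without the cells that carried another class alone, Gzma differed by -0.30 (edgeR adjusted p = 0.520). With both kinds of barcode left out, a setting chosen after seeing the data, 107 and 157 aged cells and 31 and 36 young cells remained, and 14 of 3965 genes (0.353%) passed, 3 higher (0.0757%) and 11 lower (0.277%) in aged cells. Gzma was then at 3565 and 3844 CPM (unscaled) in the aged cells, against 6326 and 5530 CPM in the young cells. Both aged libraries lay below both young libraries, and the log2 difference was -0.67 ± 0.117 (SE; edgeR adjusted p = 0.0334). Prf1 was at 407 and 417 CPM in these aged cells, against 784 and 659 CPM in these young cells, a log2 difference of -0.80 that missed the threshold (adjusted p = 0.0771). Nkg7 did not pass, at 2753 and 2745 CPM in the aged cells, against 3057 and 3066 CPM in the young cells. In cells thinned to 1500 UMIs, with none left out for their class, Gzma was detected in 45.2% (35.4% to 55.3%) and 44.1% (36.3% to 52.1%) of aged cells. The young libraries had 61.0% (44.5% to 75.8%) and 56.1% (39.7% to 71.5%), and fibroblasts 0 to 0.10%. The intervals overlap between ages but cover counting error within a library only, and the difference in detection was not tested. The cells left out include the one of 42645 UMIs without Gzma in young library 1, and 2 cells of aged library 2 that held 448 and 396 of its 2731 Gzma UMIs.

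Of the secreted factors, Ccl3 rose in aged cells. Ccl3, a chemokine released by activated natural killer cells, was at 408 and 417 CPM in the aged cells, against 191 and 139 CPM in the young cells, with no overlap. Its log2 difference was 1.31 ± 0.235 (SE; edgeR adjusted p = 0.0197), and it was 1.23 without the cells that carried another class (adjusted p = 0.00989). It was 0.89 and missed the threshold when cycling cells were left out too (adjusted p = 0.335), and the call was lost without young library 2 (1.16, adjusted p = 0.0678). Its neighbour on chromosome 11, Ccl4, was at 1899 and 2471 CPM in the aged cells, against 1591 and 739 CPM in the young cells, and passed only without the cells that carried another class (log2 difference 0.86, edgeR adjusted p = 0.0481). Ccl5 was the most abundant of the group and nearly level, at 8673 and 8195 CPM in the aged cells, against 7676 and 8354 CPM in the young cells. Xcl1, which attracts cross-presenting dendritic cells, was at 1901 and 2029 CPM in the aged cells, against 1390 and 1593 CPM in the young cells (log2 difference 0.40, edgeR adjusted p = 0.232). Xcl1 was detected in 77.9% (68.7% to 85.4%) and 80.7% (73.8% to 86.5%) of thinned aged cells, with none left out for their class. The young libraries had 53.7% (37.4% to 69.3%) and 48.8% (32.9% to 64.9%), and fibroblasts 0 to 0.21%. These intervals cover counting error within a library only, and the difference in detection was not tested. Without another class or cycling cells, Xcl1 was at 1778 and 2460 CPM (unscaled) in aged cells, against 1703 and 2216 CPM in young cells. That log2 difference was 0.12 (edgeR adjusted p = 0.919). In T cells Xcl1 was at 356 and 329 CPM (unscaled) in the aged libraries, against 248 and 218 CPM in the young libraries. Ifng was at 247 and 298 CPM in the aged cells, against 170 and 291 CPM in the young cells. Of 11 tested genes of the secreted list, 1 rose, Ccl3, and the median was 0.26.

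The stress gene Gadd45b and the survival gene Bcl2a1b rose in aged cells. Gadd45b, which responds to inflammatory and growth-arrest signals and promotes p38 kinase signalling, was at 184 and 207 CPM in the aged cells, against 20.7 and 60.6 CPM in the young cells. That is 214 UMIs in the aged libraries, against 14 UMIs in the young libraries. Its log2 difference was 2.31 ± 0.369 (SE; edgeR adjusted p = 0.0123). It passed without the cells that carried another class (3.06, adjusted p = 0.000355) and when cycling cells were left out too (2.95, adjusted p = 0.00856). In T cells it averaged 306 CPM in the aged libraries and 233 CPM in the young libraries. Bcl2a1b, a relative of Bcl2, was at 120 and 142 CPM in the aged cells, against 20.7 and 12.1 CPM in the young cells, a log2 difference of 2.95 ± 0.414 (SE; edgeR adjusted p = 0.00682), and 86.9% of its 3' words occur in its near-identical paralogs, so the rise cannot be assigned to this copy. None of 24 tested immediate-early and dissociation-response genes passed the test, although 16 of them had both aged libraries above both young libraries (21.8% of all tested genes did). Their median log2 difference was 0.43. Fos was at 924 and 868 CPM in the aged cells, against 542 and 800 CPM in the young cells, and Junb at 1920 and 1865 CPM in the aged cells, against 1142 and 1654 CPM in the young cells.

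Genes of less mature natural killer cells and of type 1 innate lymphoid cells leaned towards the aged cells, and 1 of them passed the test. Il7r, the interleukin 7 receptor chain of immature and helper-like innate lymphocytes, was at 109 and 121 CPM in the aged cells, against 20.7 and 42.4 CPM in the young cells. It had 126 UMIs in the aged libraries, against 11 UMIs in the young libraries, and a log2 difference of 1.89 ± 0.389 (SE; edgeR adjusted p = 0.0368). Without the cells that carried another class it was 2.07 (adjusted p = 0.0193), and without cycling cells as well 1.73 (adjusted p = 0.291). The call was lost without young library 1 (1.47, adjusted p = 0.171) and without young library 2 (2.52, adjusted p = 0.0542). T cells, which express Il7r at 607 CPM in the aged libraries and 414 CPM in the young libraries, were more frequent in the aged capsule. Whether RNA of T cells added to the Il7r counts of the gated cells was not tested. With free RNA taken out by the estimate above, which cannot decide single calls, no gene passed and Il7r differed by 1.43 (edgeR adjusted p = 0.630). Of 13 tested genes of the immature list, Il7r alone rose, 11 had both aged libraries above both young libraries (21.8% of all tested genes did), and the median was 0.58. The median was 0.53 without the cells that carried another class and 0.37 without cycling cells as well. Tcf7, a transcription factor of early lymphocytes, was at 109 and 99.2 CPM in the aged cells, against 51.7 and 30.3 CPM in the young cells (log2 difference 1.31, edgeR adjusted p = 0.114), and Cd27 was at 151 and 103 CPM in the aged cells, against 77.5 and 72.7 CPM in the young cells.

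At least 1 of 6 type 1 innate lymphoid genes (Itga1, Cxcr6, Tnfsf10, Il7r, Cd200r1, Inpp4b) was detected in 37.5% (28.2% to 47.5%) and 35.4% (28.04% to 43.3%) of thinned aged cells. In thinned young cells the shares were 19.5% (8.82% to 34.9%) and 26.8% (14.2% to 42.9%), so the libraries did not overlap while their intervals did. At least 1 of 9 genes of conventional natural killer cells was likewise detected in 78.8% and 72.7% of thinned aged cells, against 68.3% and 61.0% of thinned young cells. Cells with type 1 genes and none of those 9 were 10.6% and 19.3% of the aged cells, against 12.2% and 17.1% of the young cells, with overlap. All 16 tested genes of the type 1 list had a log2 difference above 0, with a median of 0.55, and Il7r alone passed the test. The median was 0.32 without the cells that carried another class and 0.23 without cycling cells as well. Eomes, the factor that separates natural killer cells from type 1 innate lymphoid cells, was level, at 126 and 122 CPM in the aged cells, against 119 and 139 CPM in the young cells. Tbx21, which both cell types need, was at 128 and 94.3 CPM in the aged cells, against 150 and 109 CPM in the young cells. None of 24 tested transcription factor genes passed, with a median of 0.08. Among them Zeb2, a factor of terminal maturation, was at 59.8 and 71.1 CPM in the aged cells, against 139.474 and 139.332 CPM in the young cells (log2 difference -1.08, edgeR adjusted p = 0.0827).

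Of 13 tested genes of mature circulating natural killer cells, Ly6c2 rose and none fell, with a median of -0.06. The median was -0.24 without the cells that carried another class and -0.55 without cycling cells as well. Ly6c2, a surface protein of mature natural killer cells, memory T cells and monocytes, was at 1019 and 660 CPM in the aged cells, against 196 and 388 CPM in the young cells. Its log2 difference was 1.53 ± 0.327 (SE; edgeR adjusted p = 0.0416), 1.30 without the cells that carried another class (adjusted p = 0.0167) and 0.88 without cycling cells as well (adjusted p = 0.320), and the call was lost without young library 1 (1.15, adjusted p = 0.122). Ly6c2 was detected in 35.6% (26.4% to 45.6%) and 34.8% (27.5% to 42.7%) of thinned aged cells. The thinned young cells had 19.5% (8.82% to 34.9%) and 17.1% (7.15% to 32.1%), and fibroblasts 0 to 1.24%. The intervals cover counting error within a library only, and the difference in detection was not tested. In T cells Ly6c2 averaged 614 CPM (unscaled) in the aged libraries and 508 CPM in the young libraries. With 20.6% of its 3' words shared with other Ly6 genes, some of its reads may belong to them.

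Other rises were of more broadly expressed transcripts. Cd52, a small surface glycoprotein of lymphocytes, was at 5693 and 5294 CPM in the aged cells, against 3285 and 3750 CPM in the young cells (log2 difference 0.64, edgeR adjusted p = 0.0197). Tmsb10, an actin-binding peptide, was at 7364 and 6524 CPM in the aged cells, against 4282 and 4974 CPM in the young cells, and Malat1, a nuclear non-coding RNA, differed by a log2 of 0.39. H2-Q4, an MHC class I gene with paralogs, was at 198 and 193 CPM in the aged cells, against 93.0 and 42.4 CPM in the young cells. It alone rose among 18 tested MHC class I presentation genes, whose median was 0.28. Cirbp, a cold-inducible RNA-binding protein, was at 130 and 134 CPM in the aged cells, against 36.2 and 54.5 CPM in the young cells. The calls were lost without aged library 1 for Cd52 (adjusted p = 0.0522) and Tmsb10 (0.0974), without young library 2 for H2-Q4 (0.142) and Cirbp (0.0742), and without young library 1 for Cirbp (0.172). Cd52, Tmsb10, Malat1, H2-Q4 and Cirbp also did not pass without the cells that carried another class.

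Igkc, Plvap and Prss2 had no UMI in the young natural killer cells. Igkc, the immunoglobulin kappa constant region, had 315 UMIs in the aged cells, at least 34.7-fold higher per UMI than the limit set by 3 UMIs over both young libraries, and it averaged 28314 CPM over all barcodes of the aged libraries, against 248 CPM in the young libraries. Plasma cells and B cells make it, and Jchain, another plasma cell transcript, was at 12.4 and 24.8 CPM in the aged natural killer cells and at 0 in the young ones. Plvap, a gene of fenestrated capillaries, had 56 UMIs in the aged cells, at least 6.18-fold above the limit, and averaged 126 CPM over all aged barcodes, against 10.4 CPM over all young barcodes. Prss2, a trypsinogen gene that lies between the variable and constant segments of the T cell receptor beta locus (GRCm38 chr6:41521787-41525079, upstream of Trbc1), had 44 UMIs in the aged cells, at least 4.85-fold above the limit. It averaged 10.4 CPM in aged T cells, 0.0699 CPM in aged fibroblasts and 2.25 CPM over all aged barcodes, and had no UMI over all young barcodes. For all 3 genes the level over all barcodes was also higher in the aged libraries. Prss2 was at 37.3 CPM (unscaled) in aged natural killer cells, above its level over all barcodes and in T cells. Igkc, at 267 CPM, and Plvap, at 47.4 CPM, were below their levels over all barcodes. Plvap also averaged 313 CPM in the aged type 2 innate lymphoid gate and 55.2 CPM in aged T cells. The source of these transcripts was not tested. With free RNA taken out of the counts Prss2 kept a log2 difference of 6.83 and did not pass (edgeR adjusted p = 0.428). Igkc and Plvap were not among the genes tested in that fit, whose estimate cannot decide single calls. Plvap lost its call without aged library 1 (edgeR adjusted p = 0.0868), and Plvap and Prss2 lost theirs without either young library (0.117 to 0.120).

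**Figure D4:**
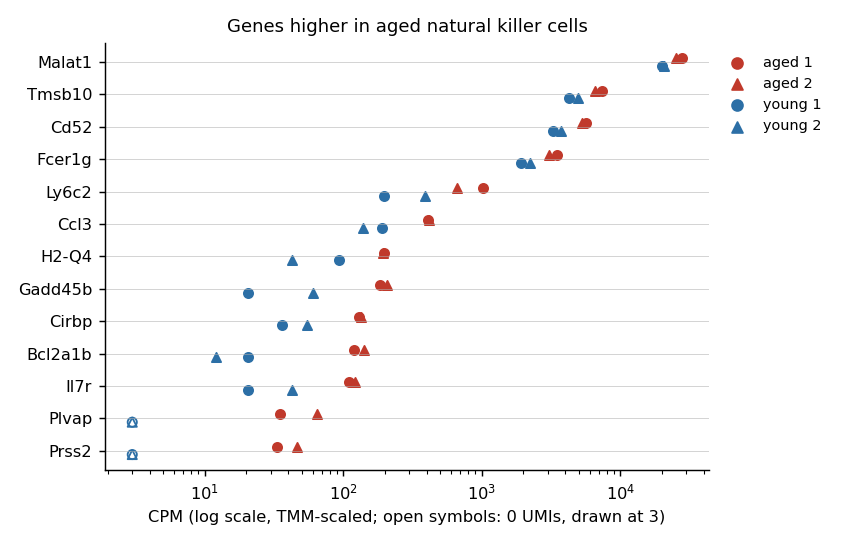
The horizontal axis gives CPM on a log scale for the 13 named genes that were higher in aged natural killer cells (rows), with aged libraries in red, drawn just above the young libraries in blue. Both aged libraries lie right of both young libraries in each row, and Plvap and Prss2 have 0 UMIs in the young libraries (open symbols, drawn at 3 CPM).

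Of the 117 genes that were lower in aged natural killer cells, the 15 with the lowest p, apart from the predicted gene Gm42418 described below, were known fibroblast or stromal transcripts. In order of p they were Col1a1, Col3a1, Cd248, Col1a2, Sparc, Adamts2, Pcolce2, Smpd3, Islr, Clec3b, Gsn, Loxl1, Fn1, Pi16 and Plpp3, which encode collagens, matrix proteins and surface proteins of fibroblasts or other stromal cells. Col1a1, a chain of type I collagen, was at 51.6 and 56.2 CPM in the aged natural killer cells, against 785 and 1387 CPM in the young ones, a log2 difference of -4.32 ± 0.316 (SE; edgeR adjusted p = 0.000414). In the fibroblast gate itself Col1a1 averaged 1040 CPM in the aged libraries and 4183 CPM in the young libraries. Summed over 10 fibroblast markers, the natural killer cells held 3397 and 2919 CPM (unscaled) in the aged libraries, against 10068 and 16621 CPM in the young libraries. Without the cells that carried another class the sums were 212 and 210 CPM in the aged libraries, against 529 and 678 CPM in the young libraries. Those cells were chosen by Dcn, Col1a2 and Col3a1, which are among the 10 markers, so a lower sum without them was fixed in advance. Over all barcodes the same 10 genes summed to 10047 and 10292 CPM in the aged libraries, against 32502 and 32449 CPM in the young libraries. Of the 10 markers 7 fell and none rose in the natural killer cells, where 2.31% of all tested genes fell.

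Without the cells that carried another class, 45 of 4338 genes (1.04%) passed, 10 higher (0.231%) and 35 lower (0.807%) in aged cells, and 18 of the 45 were also among the 131. Col1a1, Col1a2, Col3a1 and Gsn were still lower. Col1a2 and Col3a1 were used to choose the cells left out, so their levels in the remaining cells are not independent of that choice. Ly6a, an interferon-responsive surface protein that fibroblasts and endothelium express strongly, fell by 1.52 on the log2 scale in all cells (edgeR adjusted p = 0.0336) and differed by 0.59 in the other direction without those cells (adjusted p = 0.730). Tgfbr2, a receptor for transforming growth factor beta, fell by 1.62 in all cells (edgeR adjusted p = 0.0234) and differed by -0.35 without them (adjusted p = 0.833). Ifi27l2a, an interferon-induced gene, fell by 2.15 in all cells (edgeR adjusted p = 0.021) and differed by -1.18 without them (adjusted p = 0.151). Without young library 2 none of these 3 passed (Ly6a 0.186, Tgfbr2 0.195, Ifi27l2a 0.0876), and Ly6a did not without aged library 1 (0.0593).

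Gm42418, mt-Rnr1 and Lars2 fell in aged cells under each of the 3 choices of cells. Gm42418, described here because its values were seen, is a long non-coding RNA annotated on chromosome 17 within a ribosomal RNA repeat and was at 12904 and 12574 CPM in the aged cells, against 32601 and 42696 CPM in the young cells. Its log2 difference was -1.56 ± 0.113 (SE; edgeR adjusted p = 0.000414). It was also lower in aged cells of other classes, averaging 12458 CPM in T cells of the aged libraries and 30619 CPM in T cells of the young libraries. The mitochondrial ribosomal RNA mt-Rnr1 was at 3087 and 3293 CPM in the aged cells, against 5150 and 6712 CPM in the young cells (log2 difference -0.89, edgeR adjusted p = 0.0101). Lars2, which encodes mitochondrial leucyl-tRNA synthetase, was at 379 and 385 CPM in the aged cells, against 868 and 775 CPM in the young cells (-1.10, edgeR adjusted p = 0.0167), and passed neither without aged library 1 (adjusted p = 0.114) nor without aged library 2 (0.0980). mt-Nd3, a subunit of complex I, was at 39.2 and 74.4 CPM in the aged cells, against 217 and 206 CPM in the young cells (-1.86, edgeR adjusted p = 0.0150). mt-Nd3 lost its call without young library 1 (adjusted p = 0.0766) and without young library 2 (0.0838), and it was the 1 of 9 tested mitochondrially encoded genes that fell, with a median of -0.52. Without the cells that carried another class, mt-Nd3 (-1.92, edgeR adjusted p = 0.00486) and mt-Nd2 (-0.70, adjusted p = 0.0328) both fell. With cycling cells left out as well, 1 of 9 tested genes of the list fell, which was mt-Nd2 (-0.80, edgeR adjusted p = 0.0334). The median share of mitochondrial UMIs per cell was 1.88% and 2.09% in the aged libraries, against 3.01% and 3.35% in the young libraries. Nuclear-encoded oxidative phosphorylation genes (39 tested, median 0.06), glycolysis genes (12 tested, median -0.20) and ribosomal protein genes (43 tested, median 0.21) had no member that passed.

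Interferon-response genes were uneven between the young libraries. Of 23 tested genes, Ifi27l2a and Ly6a fell, with the values above, and the median was -0.41. Summed over the list, natural killer cells held 1859 and 1851 CPM (unscaled) in the aged libraries, against 2128 and 4040 CPM in the young libraries. Without the cells that carried another class the sums were 1731 and 1669 CPM in aged cells, against 1441 and 2593 CPM in young cells. The ages then overlapped, none of 19 tested genes passed, and the median was -0.13. Ifit1, induced by type I interferon, was at 6.19 and 4.96 CPM in the aged cells, against 5.17 and 158 CPM in the young cells, so that 1 young library stood apart. None of 17 tested heat shock and chaperone genes passed, with a median of -0.43 and 11 with both aged libraries below both young libraries (22.8% of all tested genes were). Hsp90ab1 was at 1204 and 1323 CPM in the aged cells, against 1999 and 1763 CPM in the young cells (log2 difference -0.57, edgeR adjusted p = 0.0897). Hsp90ab1, an abundant chaperone, did pass without the cells that carried another class (-0.70, edgeR adjusted p = 0.0317). The list median was then -0.30. With cycling cells left out as well, none of 15 tested genes of the list passed, and the median was -0.12.

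Cell cycle genes rested on few cells. A cell cycle signal (at least 2 UMIs of Mki67, Top2a and Birc5) was present in 2 and 8 aged cells, against 3 and 1 young cells. None of 16 tested cell cycle genes passed in all cells, with a median of -0.74. Without the cells that carried another class 8 of 16 fell (0.807% of all genes did in that fit) and the median was -1.61, against -0.22 over 6 tested genes when cycling cells were left out too. The 8 included Top2a (log2 difference -1.86, edgeR adjusted p = 0.00274), Mki67 (-1.69, adjusted p = 0.0108) and Stmn1 (-1.52, adjusted p = 0.00227). In those cells Mki67, a marker of cycling cells, was at 76.3 and 48.5 CPM (unscaled) in the aged libraries, against 264 and 129 CPM in the young libraries. Without the 2 cells of more than 20000 UMIs, but with all others, Mki67 differed by 0.16 in the other direction.

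The remaining lists gave few calls. Of 19 tested cytokine receptor genes, Il7r rose and Tgfbr2 fell, with a median of 0.14, and of 22 tested trafficking genes none passed, with a median of 0.18. Ccr2, a chemokine receptor for monocyte chemoattractant proteins, was at 581 and 458 CPM in the aged cells, against 362 and 557 CPM in the young cells. Cx3cr1 and S1pr5, which mark blood natural killer cells, had at most 46.5 CPM in any library.

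The age difference of natural killer cells was set against that of T cells from the same libraries, with the library as a block. T cells were barcodes with at least 2 UMIs of Cd3d, Cd3e and Cd3g and no Ncr1 or Klrb1c UMI, 1544 and 3004 in the aged libraries and 260 and 212 in the young libraries. The age difference itself differed for 4 of 8702 genes (0.046%). It was more positive in natural killer cells for 1 gene (0.0115%) and more negative for 3 (0.0345%). The genes were Ccl5, Prf1, Eomes and Nrgn, all of which are expressed by natural killer cells in both ages. At an unadjusted p under 0.05 there were 608.

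Ccl5 was at 8096 and 7493 CPM (unscaled here and below) in aged natural killer cells, against 7186 and 7498 CPM in young ones. In T cells it was at 8531 and 8184 CPM in the aged libraries, against 2446 and 2941 CPM in the young libraries. The log2 age difference was 0.07 in natural killer cells and 1.76 in T cells, and the difference between them was -1.59 ± 0.0945 (SE; edgeR adjusted p = 6.25e-06). Aged T cells thus reached the Ccl5 level that natural killer cells had in both ages.

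Prf1 was at 354 and 327 CPM in aged natural killer cells, against 469 and 435 CPM in young ones, and at 58.9 and 48.5 CPM in aged T cells, against 18.1 and 14.5 CPM in young T cells. The log2 age difference was -0.42 in natural killer cells and 1.84 in T cells, and the difference between them was -2.15 ± 0.273 (SE; edgeR adjusted p = 0.0162). The Prf1 level therefore stayed several times higher in natural killer cells than in T cells at either age. Eomes, the T-box factor of natural killer and effector-memory T cells, was at 117 and 112 CPM in aged natural killer cells, against 111 and 125 CPM in young ones. In T cells it was at 95.2 and 81.8 CPM in the aged libraries, against 13.3 and 4.45 CPM in the young libraries. The difference of the age differences was -3.34 ± 0.443 (SE; edgeR adjusted p = 0.0171).

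Nrgn, which encodes the calmodulin-binding protein neurogranin, went the other way. It was at 219 and 197 CPM in aged natural killer cells, against 189 and 174 CPM in young ones, and at 3.66 and 4.08 CPM in aged T cells, against 16.2 and 40.0 CPM in young T cells. The difference of the age differences was 2.92 ± 0.426 (SE; edgeR adjusted p = 0.0331). Type 2 innate lymphoid cells held Nrgn too, at 242 to 487 CPM.

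The promoters of Prf1, Eomes and Nrgn are shown because their transcripts differed in age response between natural killer cells and T cells. They are RefSeq sequences of 300 bases from GRCm38.p6, on the plus strand for Prf1 and Eomes and the minus strand for Nrgn, from 250 bases before the annotated start to 50 after it. Capitals mark the T-box half-site AGGTGT, searched on both strands (reverse complement ACACCT). The Prf1 promoter (chr10:61297586-61297885) holds 1 match and the Eomes promoter (chr9:118477939-118478238) and the Nrgn promoter (chr9:37552696-37552995) none, and 13.7% of 32851 mouse promoters hold at least 1. A match is a run of letters and not evidence of binding.
Prf1 promoter: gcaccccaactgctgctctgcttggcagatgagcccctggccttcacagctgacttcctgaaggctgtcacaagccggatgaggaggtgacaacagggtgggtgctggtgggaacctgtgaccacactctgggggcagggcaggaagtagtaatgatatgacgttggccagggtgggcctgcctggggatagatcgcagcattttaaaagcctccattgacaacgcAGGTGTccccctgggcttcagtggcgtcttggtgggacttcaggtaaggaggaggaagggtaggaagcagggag
Eomes promoter: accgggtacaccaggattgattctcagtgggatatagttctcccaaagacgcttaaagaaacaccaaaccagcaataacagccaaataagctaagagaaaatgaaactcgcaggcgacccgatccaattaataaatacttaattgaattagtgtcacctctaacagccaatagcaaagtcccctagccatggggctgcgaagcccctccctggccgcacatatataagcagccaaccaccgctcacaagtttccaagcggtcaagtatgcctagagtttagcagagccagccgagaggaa
Nrgn promoter: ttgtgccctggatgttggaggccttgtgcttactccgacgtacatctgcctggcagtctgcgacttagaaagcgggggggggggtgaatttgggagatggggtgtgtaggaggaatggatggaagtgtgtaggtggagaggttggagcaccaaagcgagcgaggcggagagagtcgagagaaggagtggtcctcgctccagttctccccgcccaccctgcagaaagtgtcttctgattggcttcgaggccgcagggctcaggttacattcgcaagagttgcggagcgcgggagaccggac

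Other effector genes had the same order without passing the test on all cells. Nkg7 differed by a log2 of 0.18 between ages in natural killer cells and by 1.20 in T cells (difference -0.93, edgeR adjusted p = 0.0613), and Gzma by -0.12 and 2.02 (difference -2.05, adjusted p = 0.0808). Ccl3 differed by 1.31 in natural killer cells and 2.95 in T cells, a difference of -1.54 that did not pass (edgeR adjusted p = 0.24). Gadd45b differed by 2.31 in natural killer cells and 0.53 in T cells (difference 1.90, edgeR adjusted p = 0.11), so its rise was not shown to be particular to natural killer cells. Without the cells of either class that carried another class, 31 of 6931 genes (0.447%) differed, 11 upward (0.159%) and 20 downward (0.289%), and the 4 genes above were among them. The T cell gate is a mixture of T cell types, and a change in its makeup and a change within its cells cannot be told apart here.

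**Figure D5:**
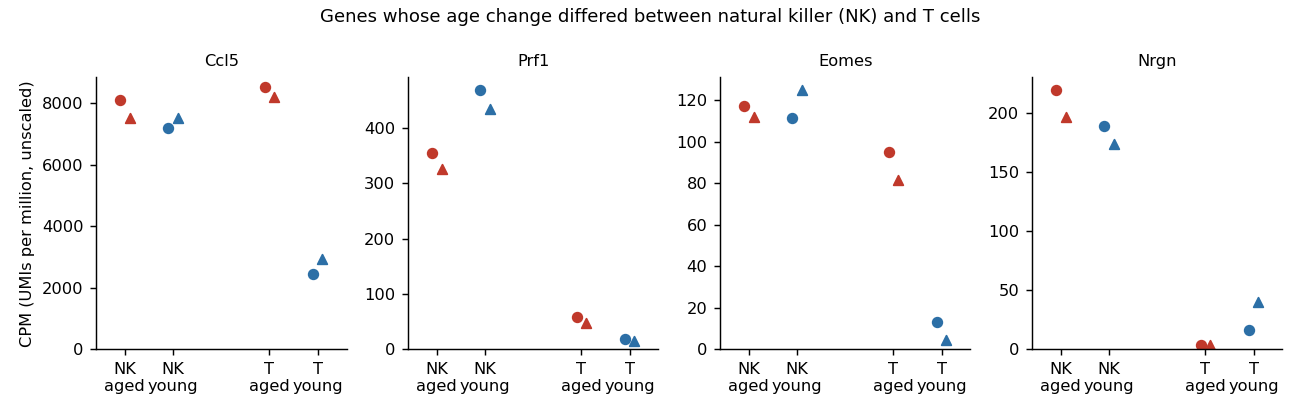
Unscaled CPM (vertical axis, linear from 0) of Ccl5, Prf1, Eomes and Nrgn is shown for natural killer (NK) cells and T cells, aged libraries (red) left of young libraries (blue), 1 point per library. In natural killer cells the ages lie close together for Ccl5 and Eomes, the aged libraries lie below the young ones for Prf1 and above them for Nrgn, whereas aged T cells lie above young T cells for Ccl5, Prf1 and Eomes and below them for Nrgn.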

How the data were processed

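The deposited counts are whole UMI counts per gene and barcode, made by the authors with Cell Ranger 6.0.2 on GRCm38, per the submitters' processing notes (the file header names 6.0.1), and were not normalized. Members of the cell group, the gene lists and the limits were chosen with earlier results of these data known. Gates were applied to raw counts in all 4 libraries, and UMIs were summed per library over the gated cells. Ages were compared with edgeR 4.0.16 (quasi-likelihood test, TMM scaling, low-count filter, Benjamini-Hochberg adjustment) in R 4.3.3, without pairing libraries. The difference from T cells was fitted with the library as a block. Shares were tested with edgeR on the counts of 8 classes. Each SE was derived from the test, as the absolute log2 difference divided by the square root of its F statistic. CPM is relative to the UMIs of the tested genes with TMM scaling, or to the UMIs of all genes where called unscaled. Doublets were scored with scanpy 1.11.5 and removed only as an alternative.

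Genes were named by rule: up to 15 rises and 15 falls in order of p, outside the 9 genes of the gate and without immunoglobulin and predicted genes, plus called members of the lists and the identity list. Other named genes were chosen after their values were seen. Library totals ran from 51180311 to 70925446 UMIs and the summed natural killer UMIs from 183922 to 661247, and intervals cover counting error only. On simulated counts, 22.2% of 2-fold and 87.2% of 4-fold age changes were called among 5017 genes, and 6% and 50.5% of such differences from T cells among 8502 genes. Alternatives were other scalings and filters, DESeq2 1.42.0, other gates, removal of free RNA, doublets or cells that carried another class, and leaving out each library. Free RNA was the profile of all kept barcodes, scaled by the fibroblast markers of the gated cells. In T cells the estimate was 27.4% and 33.7% of UMIs in the aged libraries, against 21.7% and 31.8% in the young libraries. Promoter sequences are from RefSeq (GRCm38.p6).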

Additional observations from a re-analysis of the deposited data

Results flagged for a closer look

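The age change differed between natural killer cells and T cells of the same libraries for 4 genes, each by a test of the difference itself (edgeR's quasi-likelihood test with the library as a block, 0.046% of 8702 genes). The difference, on the log2 scale, was -1.59 for Ccl5 (edgeR adjusted p = 6.25e-06) and -2.15 for Prf1 (0.0162). It was -3.34 for Eomes (0.0171) and 2.92 for Nrgn (0.0331). Ccl5 passed under every alternative that was run. Prf1 did not pass without cells of high doublet score (0.0638) or with free RNA taken out (0.0692). Eomes did not pass under a stricter filter (0.0746), without cells of high doublet score (0.0894) or with free RNA taken out (0.100). Nrgn did not pass under the stricter filter (0.108), without cells of high doublet score (0.120) or with a gate of 3 UMIs (0.131). It also did not pass with free RNA taken out (0.0692) or with the replicate block (0.0603). The free RNA estimate in natural killer cells was set mostly by cells that carried another class, so that fit cannot decide single calls.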

How the results depend on the processing

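The main fit between ages called 131 of 5059 genes (2.59%). This became 378 of 16132 (2.34%) without a filter on low counts and 77 of 5023 (1.53%) with a gate of 3 UMIs. Without cells holding a Trac, Trbc1 or Trbc2 UMI it was 132 of 1211 (10.9%). Leaving out cells with a C1q UMI (a complement transcript of macrophages) gave 2 of 3483 (0.0574%). Removing cells of high doublet score gave 1 of 4317 (0.0232%). Taking out free RNA gave 0 of 3795 (edgeR, 294 at an unadjusted p under 0.05). Further alternatives were chosen after seeing the data. They gave 45 of 4338 (1.04%) without cells that carried another class and 301 of 4845 (6.21%) without cycling cells. Without either the count was 14 of 3965 (0.353%), and without the 2 cells over 20000 UMIs it was 267 of 5015 (5.32%). Leaving out 1 library gave 76 (without young library 2) to 167 (without aged library 1). The count of 4 genes whose age change differed from T cells became 99 without the filter, 2 with a stricter filter, 2 without cells of high doublet score, 115 without cells holding a Trac, Trbc1 or Trbc2 UMI, 10 without a C1q UMI, 7 with free RNA taken out, 31 without another class, 34 without the deepest cells, and 10 to 61 with 1 library left out (10 without aged library 2, 61 without aged library 1). The cause of these shifts was not tested. The share difference turned only among the lymphoid gates (-1.13).

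The replicate block gave 251 calls between ages, and same-numbered libraries shared only a number (r = -0.04 over 5064 genes between their deviations). The log2 age differences below had the opposite sign to the main fit on all cells, or changed sign between fits with 1 library left out. Ly6a was 0.59 without another class and 0.23 without cycling cells as well. Eomes was 0.10 without the filter, 0.0042 without high doublet scores, 0.12 without T cell receptor UMIs, 0.092 without C1q UMIs, and -0.13 to 0.12 with 1 library left out. Gzma was 0.026 without the filter and -0.29 to 0.13 with 1 library left out, Il2rb was 0.055 without T cell receptor UMIs, and Tbx21 was -0.41 to 0.052 with 1 library left out. Klre1 was -0.020 with a gate of 3 UMIs, -0.13 without C1q UMIs, -0.062 with free RNA taken out and -0.17 without another class or cycling. Klrk1 was -0.16 and Nkg7 -0.084 without C1q UMIs, Nkg7 was -0.051 with free RNA taken out, and without another class or cycling they were -0.055 and -0.15. Tyrobp was -0.023, Mki67 0.70 and Top2a 0.46 without C1q UMIs, and Mki67 was 0.16 without the deepest cells. Stmn1 was -1.22 to 0.091 with 1 library left out. The age test is limited by the number of cells, 115 and 175 in the aged libraries and 41 and 45 in the young libraries.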
